A study of Arabidopsis thaliana with 12 samples.

Results

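A set of 10 genes of the plant's outer cell layer was measured in seedlings and 3 kinds of callus of Arabidopsis thaliana. They were chosen by locus code from a fixed list: ATML1 (AT4G21750), PDF2 (AT4G04890), PDF1 (AT2G42840), FDH (AT2G26250), BDG1 (AT1G64670), LCR (AT2G45970), CER1 (AT1G02205), CER3 (AT5G57800), CER6 (AT1G68530) and KCS1 (AT1G01120). All 10 have a probe on the array, 11 probes in total, out of 25665 loci with a probe. All 10 were also among the 21347 genes tested, a set limited to genes that every array of 1 or more groups measured well above background. Reference symbols differ for FDH (KCS10), LCR (CYP86A8) and CER6 (KCS6).

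The epidermis arises from the outermost layer of the embryo and the shoot meristem. ATML1 and PDF2 are related homeodomain transcription factors of the HD-ZIP IV class that specify this layer and bind the L1 box in the promoters of its genes, among them PDF1. Epidermal cells of the shoot build the cuticle, a cutin polyester covered and filled with wax. Waxes derive from very-long-chain fatty acids, which 3-ketoacyl-CoA synthases elongate, and the resulting acyl chains are converted to alkanes, alcohols and esters and exported to the surface.

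Each group had 3 one-colour arrays. Control seedlings were intact wild-type Col-0 plants, 14 days old and untreated. 35S:WIND1 callus was Col-0 tissue that expressed WIND1, a factor of the AP2/ERF family that is named after dedifferentiation at wounds, from the constitutive 35S promoter, and it received no treatment. T87 callus was grown from the T87 cell line, labelled Col-0 wild type, with 500 nM of the auxin NAA, and 2,4-D-induced callus was Col-0 wild type with 500 µg/L of the auxin 2,4-D. All grew on solid MS medium. Per the labels, the arrays of a group are biological replicates that came from separate plants or separate calli, but T87 is 1 cell line and the labels do not say how many 35S:WIND1 lines were used. The design sets the 4 kinds of material against each other.

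The level of a gene is the log2 signal of its probe minus the log2 of the 75th percentile of its array, so that 0 is the 75th percentile. That percentile lay between 1755 and 3716 signal units, and the share of spots well above background was 57.1% to 65.9%. Arrays of a group correlated across genes at 0.986 to 0.991 (seedlings), 0.944 to 0.956 (35S:WIND1), 0.980 to 0.986 (T87) and 0.977 to 0.986 (2,4-D-induced). WIND1 itself was highest in the transgenic callus, with a level of 3.58 ± 0.352 beside 1.26 ± 0.0936 (seedlings), 2.27 ± 0.290 (T87) and 2.86 ± 0.247 (2,4-D-induced), each with the SD (n = 3). WIND1 was 4.97-fold, 2.01-fold and 3.04-fold higher than in seedlings in 35S:WIND1, T87 and 2,4-D-induced callus. Between 35S:WIND1 and 2,4-D-induced callus it differed 1.64-fold, under the 2-fold threshold of a call. Every slide held 1 array of each group, and replicate numbers follow the slides. On all 3 slides seedlings were at position 1, 35S:WIND1 callus at 2, T87 callus at 3 and 2,4-D-induced callus at 4. Effects of position and of group therefore cannot be told apart. Of all genes called against seedlings, the share higher was 38.9% for 35S:WIND1, 43.99% for T87 and 43.4% for 2,4-D-induced callus, and with each array scaled to its median these shares were 60.4%, 71.1% and 71.7%.

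Of the 10 genes, 9 had their highest mean level in seedlings and 9 their lowest in T87 callus. In 7 of them the groups ranked seedling, 35S:WIND1 callus, 2,4-D-induced callus, T87 callus. The other 3 were LCR, where both middle groups changed places, CER1, where T87 callus lay just above 2,4-D-induced callus without a called difference, and CER3, which was highest in 2,4-D-induced callus. Of the 10, 6 were well above background on all 12 arrays. PDF1 and BDG1 were not well above background on any T87 array, and PDF2 and FDH were so on 1 of 3 T87 arrays. In these bulk samples, fewer epidermal cells and less RNA per epidermal cell cannot be told apart.

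**Figure D1:**
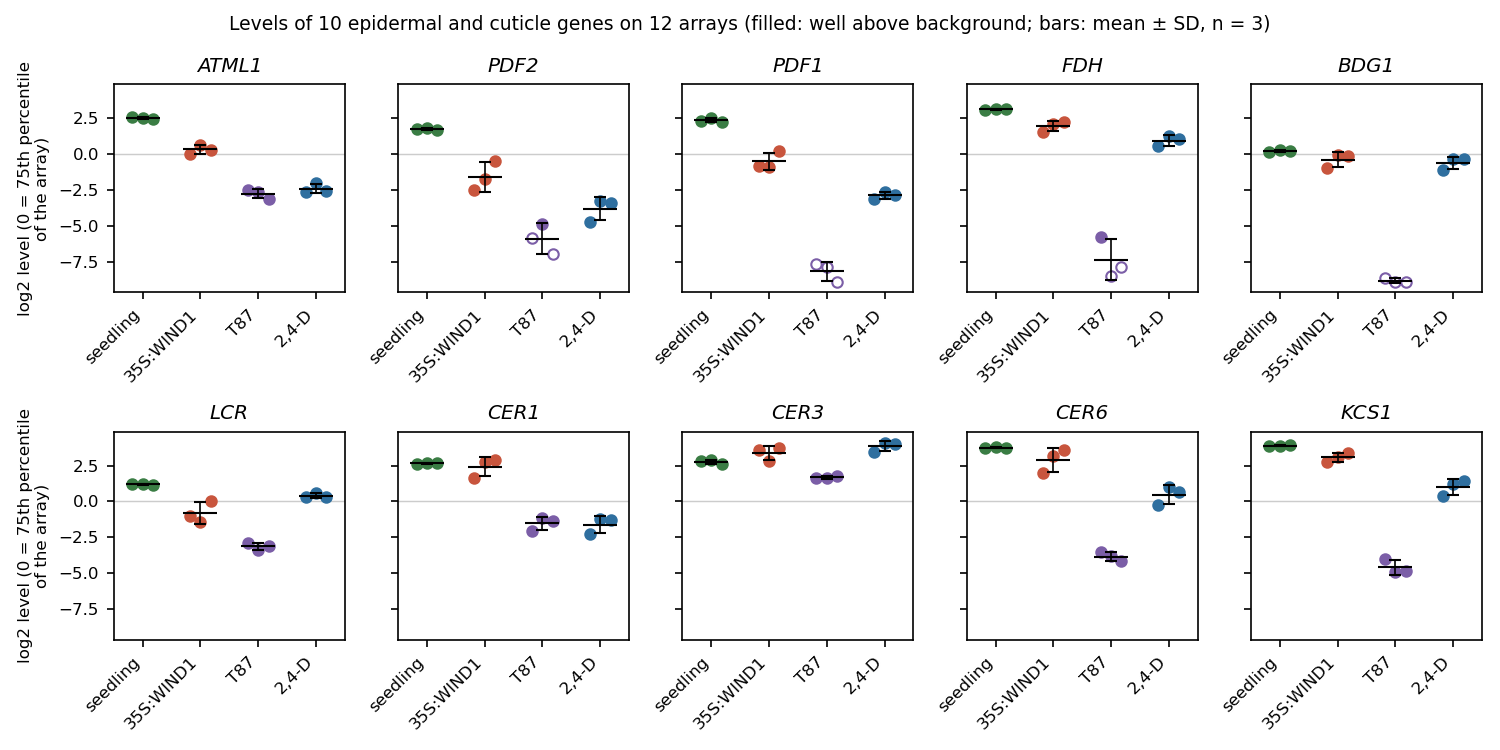
Level of each of the 10 genes on the 12 arrays (log2, 0 = the array's 75th percentile), with 1 point per array, filled where the probe was well above background, and bars for the mean ± SD (n = 3). Seedling points lie close together, T87 points are lowest in 9 genes, and CER3 has no level under 1.61.

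ATML1 and PDF2, the regulators of epidermal identity, were both lower in every callus than in seedlings. ATML1 had levels of 2.58, 2.51 and 2.45 in seedlings and of 0.03, 0.65 and 0.28 in 35S:WIND1 callus. The other calli lay further down, at -2.51, -2.67 and -3.10 in T87 callus and at -2.61, -2.05 and -2.56 in 2,4-D-induced callus. No callus array overlapped the seedlings, and 35S:WIND1 arrays stood between the seedlings and both auxin-grown calli, which overlapped each other. ATML1 was 4.57-fold lower than in seedlings in 35S:WIND1 callus (log2 change -2.19, SE 0.21, limma adjusted p = 2.41e-05), 38.6-fold lower in T87 callus (adjusted p = 3.62e-08) and 30.3-fold lower in 2,4-D-induced callus (adjusted p = 6.61e-08).

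PDF2, the close relative of ATML1, had seedling levels of 1.77, 1.84 and 1.67. In 35S:WIND1 callus they were -2.53, -1.77 and -0.50, and in 2,4-D-induced callus -4.72, -3.28 and -3.40. In T87 callus the signals read -5.88, -4.85 and -6.99, of which only the second was well above background. The 4 groups did not overlap, although the 35S:WIND1 arrays spread widely. PDF2 was 10.3-fold lower than in seedlings in 35S:WIND1 callus (log2 change -3.36, SE 0.63, adjusted p = 0.00142), 203-fold lower in T87 callus by the signals as read (adjusted p = 2.88e-06; 194-fold with arrays not above background raised to their lowest signal well above it) and 47.1-fold lower in 2,4-D-induced callus (adjusted p = 2.96e-05).

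PDF1 encodes a proline-rich protein of the outer cell layer and is used as a marker of it. Its levels were 2.30, 2.53 and 2.25 in seedlings and -0.80, -0.89 and 0.19 in 35S:WIND1 callus. In 2,4-D-induced callus they were -3.10, -2.63 and -2.85, and no T87 array measured it above background (-7.69, -7.89 and -8.91). Every pair of groups was separated without overlap. The gene was 7.27-fold lower than in seedlings in 35S:WIND1 callus (log2 change -2.86, SE 0.35, adjusted p = 9.99e-05), 37.3-fold lower in 2,4-D-induced callus (adjusted p = 8.98e-07) and at least 514-fold lower in T87 callus (adjusted p = 1.47e-08). A fold given as "at least" is a bound, in which the dimmer group enters, array by array, at the larger of 2 signals, the lowest one well above background and the probe's own. An adjusted p beside such a bound belongs to the change by the signals as read, and the bound itself was not tested.

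FDH, BDG1 and LCR act in building the cuticle, and loss of any of them is known to disturb it and to cause organs to fuse. FDH, a 3-ketoacyl-CoA synthase of the epidermis, had levels of 3.09, 3.14 and 3.13 in seedlings, 1.54, 2.09 and 2.24 in 35S:WIND1 callus and 0.54, 1.23 and 1.05 in 2,4-D-induced callus. In T87 callus it read -5.75, -8.49 and -7.85, the first well above background and the others not. The 35S:WIND1 and 2,4-D-induced arrays lay below the seedlings without overlap and far above the T87 arrays. FDH was 4.54-fold lower in 2,4-D-induced callus (log2 change -2.18 from seedlings, SE 0.57, adjusted p = 0.00624). In 35S:WIND1 callus the change of -1.17 did not pass the test (adjusted p = 0.107, 95% interval -2.43 to 0.09), but it did so when the first T87 array was left out of the error estimate that all groups share (adjusted p = 0.00424). The log2 change in T87 callus was -10.49 by the signals as read (SE 0.57, adjusted p = 1.99e-07) and -9.55 with both T87 arrays that were not above background raised to their lowest signal well above it.

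BDG1, an alpha/beta-hydrolase-fold protein of the epidermal cell wall, was measured in 35S:WIND1 and 2,4-D-induced callus and not above background in T87 callus. Its levels were 0.12, 0.29 and 0.23 in seedlings, -0.97, -0.03 and -0.15 in 35S:WIND1 callus and -1.08, -0.38 and -0.37 in 2,4-D-induced callus, and no T87 array was above background (-8.62, -8.91 and -8.93). Arrays of 35S:WIND1 callus and 2,4-D-induced callus overlapped each other and lay below the seedlings without overlapping them. The gene was at least 116-fold lower in T87 callus than in seedlings (adjusted p = 7.78e-09). It was not called in 35S:WIND1 callus (log2 change -0.59, SE 0.26, adjusted p = 0.0816) nor in 2,4-D-induced callus, where the change of -0.82 had an adjusted p of 0.0187 but was 1.76-fold and so under the 2-fold threshold.

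LCR, the cytochrome P450 CYP86A8, hydroxylates the ends of fatty acids and is linked to cutin. It had levels of 1.22, 1.18 and 1.17 in seedlings and of 0.29, 0.60 and 0.33 in 2,4-D-induced callus. The levels were -1.05, -1.43 and 0.02 in 35S:WIND1 callus and -2.90, -3.40 and -3.14 in T87 callus. Among the 10 genes LCR was the only one with a called difference placing 35S:WIND1 callus below 2,4-D-induced callus. It was 4.02-fold lower than in seedlings in 35S:WIND1 callus (log2 change -2.01, SE 0.31, adjusted p = 0.000436) and 20.2-fold lower in T87 callus (adjusted p = 1.19e-06), while the 1.72-fold decrease in 2,4-D-induced callus stayed under the threshold (adjusted p = 0.0456).

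CER1 and CER3 form the complex that makes alkanes of the wax, and their transcripts followed different patterns. CER1 had levels of 2.61, 2.70 and 2.64 in seedlings and of 1.63, 2.77 and 2.87 in 35S:WIND1 callus. It lay at -2.05, -1.15 and -1.39 in T87 callus and at -2.31, -1.26 and -1.27 in 2,4-D-induced callus. Of the 35S:WIND1 arrays, 2 were above all seedlings and 1 was below, whereas both auxin-grown calli were far below and overlapped each other. The gene was 18.2-fold lower than in seedlings in T87 callus (log2 change -4.18, SE 0.39, adjusted p = 6.5e-06) and 19.3-fold lower in 2,4-D-induced callus (adjusted p = 6.59e-06). Its change in 35S:WIND1 callus was -0.23 (adjusted p = 0.64, 95% interval -1.09 to 0.63), with a positive sign after median scaling (0.20), with the deposited series values (0.26) and without the first 35S:WIND1 array (0.17). The second, dimmer CER1 probe was not above background on any array of either auxin-grown callus and gave a decrease of at least 6.97-fold in T87 callus and of at least 6.13-fold in 2,4-D-induced callus.

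CER3 had levels of 2.78, 2.89 and 2.63 in seedlings, 3.55, 2.82 and 3.73 in 35S:WIND1 callus, 1.61, 1.62 and 1.80 in T87 callus and 3.47, 4.09 and 4.01 in 2,4-D-induced callus. The 2,4-D-induced arrays all lay above the seedlings, the T87 arrays all below, and the 35S:WIND1 arrays overlapped the seedlings. CER3 was 2.12-fold higher in 2,4-D-induced callus (log2 change 1.09, SE 0.24, adjusted p = 0.00247) and 2.14-fold lower in T87 callus (log2 change -1.10, adjusted p = 0.0022). Both changes were close to the 2-fold threshold. The rise was 0.97 without the second 2,4-D-induced array and 0.92 with the deposited series values, and the decrease was -0.99 with normexp background correction and -0.23 with median scaling, so that none of these was called. Relative to the median of all genes under median scaling the decrease was -1.09. In 35S:WIND1 callus the change of 0.60 was not called (adjusted p = 0.0573), but it was after median scaling (1.03) and with the deposited series values (1.09). The median change of all genes there was 0.50 and 0.56 with these settings, beside 0.07 without them. Relative to the median of all genes, the change of CER3 under median scaling was 0.53.

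CER6 and KCS1, both 3-ketoacyl-CoA synthases that elongate wax precursors, were high in seedlings and in 35S:WIND1 callus and low in T87 callus. CER6 had levels of 3.71, 3.76 and 3.70 in seedlings and of 1.95, 3.16 and 3.60 in 35S:WIND1 callus. It had levels of -0.27, 0.98 and 0.69 in 2,4-D-induced callus and of -3.53, -3.84 and -4.19 in T87 callus. All 35S:WIND1 arrays were below the seedlings, but the third almost reached them. CER6 was 191-fold lower than in seedlings in T87 callus (log2 change -7.58, SE 0.42, adjusted p = 2.41e-07) and 9.58-fold lower in 2,4-D-induced callus (adjusted p = 7.66e-05). The change of -0.82 in 35S:WIND1 callus was not called (adjusted p = 0.124, 95% interval -1.77 to 0.12), and without the third 35S:WIND1 array it was -1.17 and called (adjusted p = 0.0404).

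KCS1 had levels of 3.86, 3.84 and 3.95 in seedlings, 2.71, 3.08 and 3.39 in 35S:WIND1 callus, 0.41, 1.18 and 1.45 in 2,4-D-induced callus and -3.99, -4.92 and -4.84 in T87 callus. The 4 groups did not overlap. Against seedlings, KCS1 was 354-fold lower in T87 callus (log2 change -8.47, SE 0.31, adjusted p = 2.36e-08) and 7.32-fold lower in 2,4-D-induced callus (adjusted p = 2.38e-05). In 35S:WIND1 callus it was 1.77-fold lower with an adjusted p of 0.0482, under the 2-fold threshold.

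Against seedlings, 35S:WIND1 callus had 4 of the 10 genes called lower and none higher. A call required a 2-fold change or more together with a Benjamini-Hochberg adjusted p below 0.05. These 4 were ATML1, PDF2, PDF1 and LCR, and the wax and elongation genes CER1, CER3, CER6, KCS1 and FDH were not called, nor was BDG1. Among all genes tested, 19.6% were called lower and 12.5% higher. Of the 10, 8 had all 35S:WIND1 arrays below all seedling arrays, which 29.9% of all genes had. The median change of the 10 was -0.996, with -1.66, -0.91 and -0.73 on the 3 slides, beside 0.07 over all genes tested.

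T87 callus had all 10 genes called lower than in seedlings, where 26.5% of all genes tested were, and none higher (20.8%). All 10 had T87 arrays below the seedlings without overlap, which 40.9% of all genes had. The changes ran from CER3, at 2.14-fold, through CER1 and LCR to CER6, PDF2, KCS1 and the genes near or below background. The median change was -7.62, or -7.22 with PDF1 and BDG1 set at their bounds, with -7.45, -7.15 and -8.28 on the 3 slides, beside -0.0036 over all genes tested. With normexp background correction the median was -4.55, beside -0.108 over all genes, so the size of these decreases depended on the background treatment.

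2,4-D-induced callus had 7 genes called lower than in seedlings (24.2% of all genes) and 1 higher, CER3 (18.6% of all genes). The lower genes were ATML1, PDF2, PDF1, FDH, CER1, CER6 and KCS1, and BDG1 and LCR were under the fold threshold. Arrays of 9 genes lay below the seedlings without overlap (35.5% of all genes), and those of CER3 above them (44.4%). The median change was -3.07, with -3.72, -2.72 and -2.76 on the 3 slides, beside 0.15 over all genes. The 3 comparisons share the seedling arrays and are not independent of each other.

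**Figure D2:**
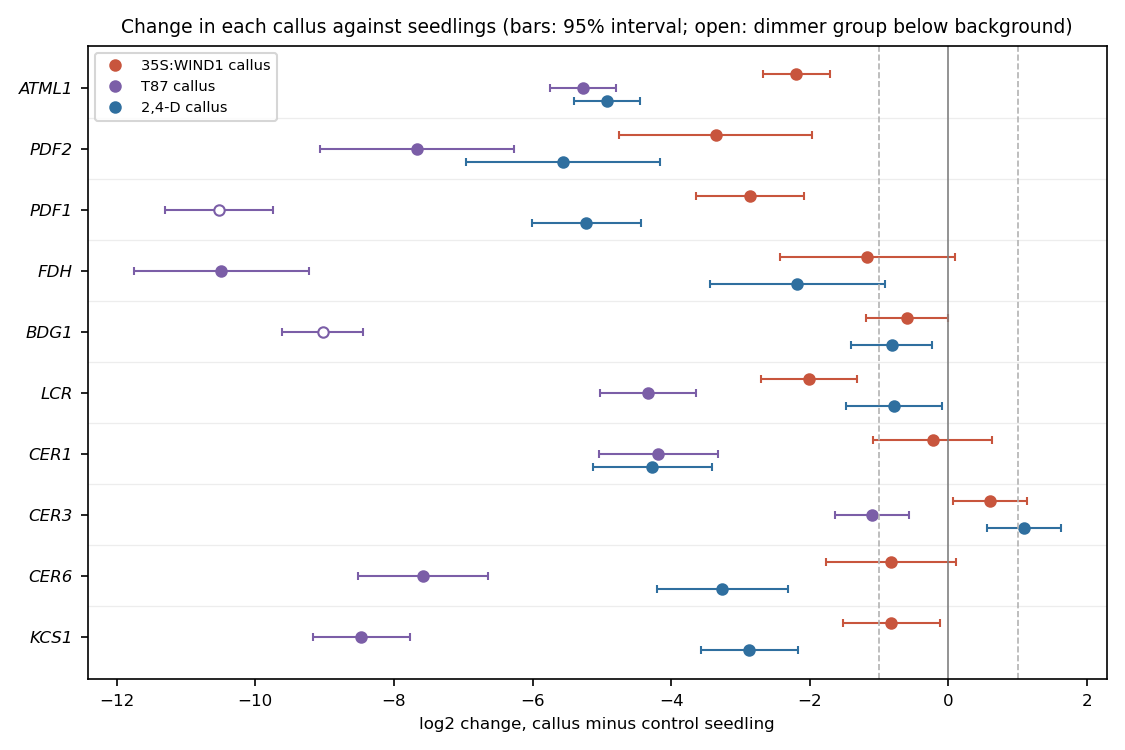
log2 change of each gene in 35S:WIND1, T87 and 2,4-D-induced callus minus control seedlings, with 95% intervals from limma; dashed lines mark 2-fold, and open points mark genes that no array of the dimmer group measured above background. ATML1, PDF2 and PDF1 lie left of the 2-fold line in every callus, whereas CER3 lies just past it on the left in T87 callus and on the right in 2,4-D-induced callus.

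Between calli, 35S:WIND1 callus had higher levels than T87 callus in all 10 genes, each called and without overlap of arrays, where 20.0% of all genes were called higher, 16.8% lower and 31.1% were higher without overlap. The wax genes differed widely: KCS1 was 200.2-fold higher in 35S:WIND1 callus (log2 change 7.65, SE 0.31, adjusted p = 8.38e-08), CER6 108-fold (adjusted p = 8.64e-07), CER1 15.5-fold (adjusted p = 1.56e-05) and CER3 3.24-fold (adjusted p = 0.000181). ATML1 was 8.46-fold higher (adjusted p = 1.74e-06) and LCR 5.02-fold (adjusted p = 0.000123). BDG1 was at least 77.0-fold higher and PDF1 at least 70.7-fold. PDF2, above background on 1 T87 array, was 19.8-fold higher as read (adjusted p = 0.000219; 18.9-fold with dim arrays raised), a call that normexp correction ended (log2 change 1.84, adjusted p = 0.142). The median change of the 10 was 5.53, or 5.23 at bounds, with 4.58, 5.46 and 7.14 on the 3 slides, beside -0.0026 over all genes.

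Against 2,4-D-induced callus, 35S:WIND1 callus had 6 genes called higher (16.8% of all genes) and 1 lower (11.7%), LCR. CER1 differed most, 16.5-fold higher in 35S:WIND1 callus (log2 change 4.04, SE 0.39, adjusted p = 2.26e-05). ATML1 was 6.63-fold higher (adjusted p = 6.9e-06), CER6 5.41-fold (adjusted p = 0.000969), PDF1 5.14-fold (adjusted p = 0.000385), PDF2 4.60-fold (adjusted p = 0.0149) and KCS1 4.14-fold (adjusted p = 0.000459). LCR was 2.34-fold lower (log2 change -1.23, SE 0.31, adjusted p = 0.00827). No difference was called for FDH (1.01, 95% interval -0.25 to 2.28), BDG1 (0.23, interval -0.36 to 0.81) and CER3 (-0.49, interval -1.02 to 0.05), and these intervals include 2-fold for FDH and CER3. Without overlap of arrays, 7 genes were higher (25.2% of all genes) and 1 was lower (28.4%), and the median change was 2.12, with 2.21, 1.62 and 2.39 on the 3 slides, beside -0.07 over all genes.

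Several of these calls depended on the processing or on 1 array. With normexp correction PDF2 (0.95), PDF1 (1.63) and LCR (-1.17) were no longer called, the last at an adjusted p of 0.0953. PDF2 also missed the threshold without the third 35S:WIND1 array (1.65, adjusted p = 0.0514) and without the first 2,4-D-induced array (1.74, adjusted p = 0.0572). LCR was -0.92 without the second 35S:WIND1 array and -0.57 with the deposited series values. FDH was called with the deposited values (1.67, adjusted p = 0.0274) and without the first T87 array (1.02, adjusted p = 0.00906). With the deposited values the median change of all genes in this comparison was 0.58, beside -0.07 without them. Changes of FDH and LCR relative to that median were not tested.

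T87 callus had 8 genes called lower than in 2,4-D-induced callus (19.2% of all genes) and none higher (19.7%), the 8 being all but ATML1 and CER1. BDG1 was at least 65.8-fold lower, KCS1 48.4-fold (log2 change -5.60, SE 0.31, adjusted p = 3.14e-07), CER6 20.0-fold (adjusted p = 1.24e-05), PDF1 at least 13.8-fold, LCR 11.7-fold (adjusted p = 5.81e-06) and CER3 4.54-fold (adjusted p = 2.78e-05). FDH, above background on 1 T87 array, had a log2 change of -8.31 as read (adjusted p = 1.09e-06) and of -7.37 with dim arrays raised. ATML1 (-0.35, 95% interval -0.83 to 0.13) and CER1 (0.09, interval -0.78 to 0.95) differed by less than the threshold, with intervals inside 2-fold. PDF2 was 4.32-fold lower as read (adjusted p = 0.014; 4.11-fold with dim arrays raised), which did not hold with normexp correction (-0.89), without the third T87 array (-1.57, adjusted p = 0.0562) or without the second 2,4-D-induced array (-1.85, adjusted p = 0.0521), and normexp correction also ended the call of PDF1 (-1.52, adjusted p = 0.186). The 8 genes were lower without overlap (37.0% of all genes), and the median change was -3.94, or -3.67 at bounds, with -3.22, -4.41 and -4.24 on the 3 slides, beside -0.05 over all genes.

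**Figure D3:**
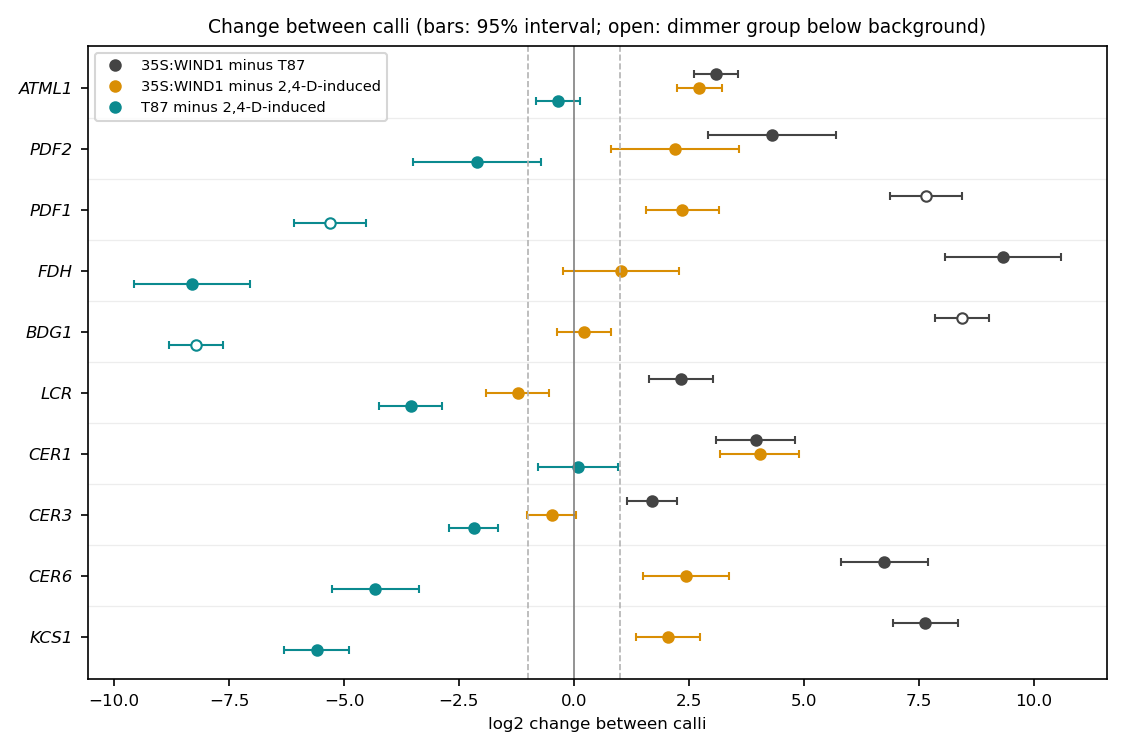
log2 change of each gene between pairs of calli, with 95% intervals from limma; dashed lines mark 2-fold, and open points mark genes that no array of the dimmer group measured above background. ATML1 and CER1 set 35S:WIND1 callus apart from both auxin-grown calli, which lie within 2-fold of each other, whereas FDH and BDG1 set T87 callus apart from the other calli.

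The 10 genes also varied together within some groups. In 2,4-D-induced callus, the first array was the lowest of the 3 for all 10 genes, as it was for 41.2% of all genes tested, and it was the lowest for 9 or 10 of them with each of 4 other scalings. In 35S:WIND1 callus the third array was the highest for 8 of the 10 and the first the lowest for 7, where 35.1% and 37.2% of all genes were. The first stayed the lowest for 7 to 9 genes with the other scalings, but the third was the highest for only 4 with normexp correction and 3 with the deposited series values. These arrays also differed in some markers of other cells, of which only a selection is given. The xylem gene XCP1 read 5.33, 2.37 and 2.47 on the 3 arrays of 35S:WIND1 callus. VND7, a regulator of xylem vessels, read 1.84, -0.30 and -0.68. The stomatal regulator FAMA read -6.25, -6.81 and -1.46, the second under the lowest signal well above background on its array (-6.51). The part of these cells in the spread was not tested. The median SD of the 10 genes between arrays of a group was 0.061 for seedlings, 0.554 for 35S:WIND1, 0.398 for T87 and 0.382 for 2,4-D-induced callus, beside 0.112, 0.358, 0.184 and 0.201 over all genes. By these medians the calli spread more in the 10 genes than over all genes, and the seedlings less. The comparison was not matched for level. In T87 callus the largest SDs were 1.43 for FDH and 1.07 for PDF2, both well above background on 1 of 3 arrays.

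Genes of the surrounding pathways were taken from 7 lists, none of whose genes is among the 10. Their counts stand beside 19.6%, 26.5% and 24.2% of all genes tested called lower in 35S:WIND1, T87 and 2,4-D-induced callus than in seedlings, and 12.5%, 20.8% and 18.6% called higher. With normexp correction 1678, 2731 and 2676 of all 21347 genes were called lower in the 3 calli, beside 4187, 5667 and 5172 without it. Among 16214 genes well above background on all 12 arrays, 2141, 2880 and 2747 were called lower. Of the genes tested, 3 cutin genes, 1 wax gene and 3 cuticle regulators passed the filter on dim probes through the seedlings alone, so that they could hardly be other than lower in callus, and all of these were called lower in every callus. Of 14 genes for cutin synthesis and assembly, 12 were called lower in 35S:WIND1 callus (median change -2.77), and GPAT4, an acyltransferase of cutin synthesis, had a change of 0.55 that was not called (adjusted p = 0.242) although its arrays lay above the seedlings without overlap. All 14 were so in T87 callus (median -6.55, or -6.04 at bounds) and in 2,4-D-induced callus (median -4.14). LTL1, a GDSL lipase-like gene, was at least 697-fold lower in T87 callus (adjusted p = 8.69e-08) and at least 613-fold lower in 2,4-D-induced callus (adjusted p = 9.56e-08). BDG3, a relative of BDG1, had a log2 change of -6.44 in 35S:WIND1 callus with 2 of 3 arrays above background (adjusted p = 8.14e-05; -5.83 with the dim array raised), a call that normexp correction ended. With that correction the cutin genes called lower numbered 3 in 35S:WIND1 callus and 6 in 2,4-D-induced callus. Only 5 cutin genes were well above background on all 12 arrays, of which 3, 5 and 5 were lower in the 3 calli.

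Of 13 further genes of wax synthesis and very-long-chain elongation, 8 were called lower in 35S:WIND1 callus (median change -1.06) and none higher. T87 callus had 12 lower (-3.62), 2,4-D-induced callus 10 (-1.83), and neither had any higher. CER2, which acts with CER6 in the last elongation steps, was not above background in either auxin-grown callus: it was at least 214-fold lower in T87 callus (adjusted p = 2.34e-08) and at least 188-fold lower in 2,4-D-induced callus (adjusted p = 2.92e-08). In 35S:WIND1 callus the log2 change of CER26, a relative of CER2 that was above background on all arrays, was -5.02 (adjusted p = 1.25e-05). CER4, which reduces fatty acids to alcohols, had the same change to 2 decimals as read (-5.02, adjusted p = 0.000668), but with 1 array above background it was -4.21 with dim arrays raised and was not called with normexp correction. Counts called lower fell to 3 in 35S:WIND1 callus and 6 in 2,4-D-induced callus with normexp correction, and median scaling and the deposited values each gave 5 lower and 2 higher in 35S:WIND1 callus, where quantile normalization gave 1 higher. Of the 8 wax genes above background on all 12 arrays, 5, 7 and 7 were lower in the 3 calli.

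Of 6 exporters and lipid transfer proteins of the cuticle, 1 was called lower in 35S:WIND1 callus (median -0.76), the ABC transporter ABCG32 (log2 change -1.58, adjusted p = 0.00432). In T87 callus all 6 were lower (-5.76, or -5.45 at bounds), LTPG2 most (-8.11, adjusted p = 3.41e-08), and in 2,4-D-induced callus 5 of 6 were (-1.63), ABCG32 most (-2.93, adjusted p = 5.21e-05). Median scaling left 2 of those 5, and of all genes tested it called 3798 lower in 2,4-D-induced callus, beside 5172 without it. Of 11 suberin genes, which act mainly in root and wound tissue, 8 were lower and 1 higher in 35S:WIND1 callus, all 11 lower in T87 callus and 8 lower in 2,4-D-induced callus. The higher one, the reductase FAR1 (log2 change 1.76, adjusted p = 0.0296), lost its call with normexp correction and without any 1 of the seedling arrays or of the 35S:WIND1 arrays other than the first. The suberin P450 CYP86A1 had the largest decrease in 35S:WIND1 callus (log2 change -7.68, or -7.32 with the dim array raised, adjusted p = 2.51e-05) and was at least 296-fold lower in T87 callus (adjusted p = 1.5e-06). Normexp correction left 2, 6 and 3 suberin genes lower in the 3 calli, and the filter on all 12 arrays left 3, 5 and 3 of 5.

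Regulators were called in both directions, in part at shares close to those over all genes. Of 9 tested HD-ZIP IV genes other than ATML1 and PDF2, of 13 listed, 35S:WIND1 callus had 2 called higher and 4 lower, T87 callus 2 and 5, and 2,4-D-induced callus 1 and 5. GL2, a regulator of hair cells, had a log2 change of -5.59 in 35S:WIND1 callus (1 array above background, adjusted p = 1.19e-06; -5.25 with dim arrays raised), whereas HDG7 rose 51.6-fold in 2,4-D-induced callus (adjusted p = 2.42e-06). HDG4 was not above background in seedlings and was at least 11.1-fold higher in 35S:WIND1 callus (adjusted p = 0.000131) and at least 38.7-fold higher in T87 callus (adjusted p = 8.09e-06). Of these 4 calls, only that of HDG7 held with normexp correction, where the HD-ZIP IV genes called lower numbered 1, 2 and 1, and 4 of the 9 were above background on all 12 arrays, of which 2, 2 and 2 were lower.

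Among 11 tested cuticle regulators, of 12 listed, 35S:WIND1 callus had 2 called higher and 4 lower, T87 callus none and 6, and 2,4-D-induced callus 3 and 6. Those lower in each callus include the 3 regulators that passed the filter on dim probes through the seedlings alone. With normexp correction 1, 3 and 2 were lower, with the filter on all 12 arrays 0, 2 and 2 of 7, and with median scaling 4, 1 and 5 were higher. MYB96, an activator of wax genes, had levels of 0.13, 0.07 and 0.02 in seedlings and of 1.93, 1.99 and 1.56 in 35S:WIND1 callus, a 3.37-fold rise (adjusted p = 9.37e-05). MYB94, another activator of wax genes, rose 5.27-fold in 2,4-D-induced callus (adjusted p = 1.39e-05). MYB16, which promotes cuticle formation, was lower in every callus. Its log2 change was -6.28 in 35S:WIND1 callus (3 arrays above background, adjusted p = 2.24e-05), -8.37 in T87 callus (1 array, adjusted p = 1.3e-06; -7.92 with dim arrays raised) and -7.34 in 2,4-D-induced callus (2 arrays, adjusted p = 3.59e-06; -7.10 with the dim array raised). Its relative MYB106, above background in seedlings alone and so 1 of the genes admitted by them, was at least 43.4-fold lower in 35S:WIND1 callus, which normexp correction did not call. Of 3 tested genes of epidermis specification signalling, of 4 listed, the receptor kinase ACR4 was called lower in 35S:WIND1 callus (log2 change -1.08, adjusted p = 0.000482) and in T87 callus (-1.23, adjusted p = 0.000105), neither of which was called after median scaling.

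**Figure D4:**
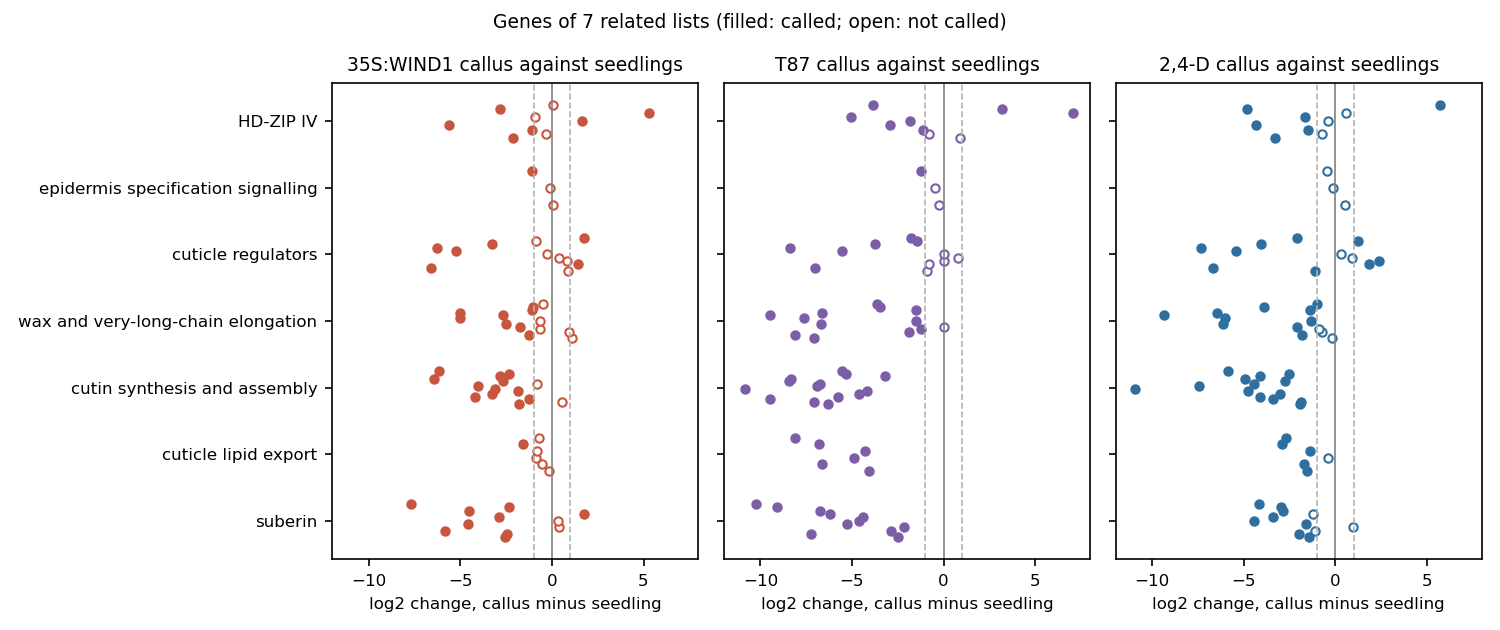
log2 change of each tested gene of 7 related lists in 35S:WIND1, T87 and 2,4-D-induced callus minus control seedlings, filled where called and open where not; dashed lines mark 2-fold. Cutin, wax and suberin genes lie mostly left of 0 in all 3 panels, exporters lie near the 2-fold line in 35S:WIND1 callus and far left in T87 callus, and the regulators lie on both sides.

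Between calli, cutin, wax and export genes were called higher in 35S:WIND1 callus more often than lower, as were all genes tested (20.0% higher and 16.8% lower against T87 callus, 16.8% and 11.7% against 2,4-D-induced callus). Compared with T87 callus, 35S:WIND1 callus had 10 of 14 cutin genes, 8 of 13 wax genes and all 6 exporters called higher, and 1 wax gene lower, the synthase KCS9 (log2 change -1.77, adjusted p = 2.25e-06). LTPG2 was 167-fold higher in 35S:WIND1 callus (adjusted p = 1.04e-07). Compared with 2,4-D-induced callus, 7 cutin genes, 4 wax genes and 4 exporters were higher in 35S:WIND1 callus and none lower, and of the suberin genes 2 were higher and 4 lower. Over all genes 19.2% were lower and 19.7% higher in T87 than in 2,4-D-induced callus. T87 callus had 8 cutin genes, 5 wax genes and 6 exporters lower than in 2,4-D-induced callus, and 1 wax gene, KCS9, 4.44-fold higher (adjusted p = 4.84e-07). With normexp correction 5 cutin and 4 wax genes were higher in 35S:WIND1 than in T87 callus, 2 cutin genes, 2 exporters and no wax gene were higher than in 2,4-D-induced callus, and 4 cutin and 2 wax genes were lower in T87 than in 2,4-D-induced callus. Over all 21347 genes, that correction left 1930, 1581 and 1942 called in these 3 directions, beside 4278, 3582 and 4092 without it. The filter on all 12 arrays left 5 cutin and 4 wax genes higher in 35S:WIND1 than in T87 callus, and 3 and 1 higher than in 2,4-D-induced callus. Of the 16214 genes that passed it, 2348 and 1980 were higher in these comparisons. The deposited series values gave 10 wax genes higher in 35S:WIND1 than in 2,4-D-induced callus. With these values 6244 of all 21347 genes were called higher in that comparison, beside 3582 without them. The median change of all genes there was 0.58, beside -0.07.

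By likeness of pattern over the 12 arrays, searched among 9048 other genes with a symbol, the nearest gene to KCS1 was LTPG2, a lipid transfer protein of the cuticle (Pearson r = 0.9976, and 0.9972 to 0.9986 with 4 other scalings). The nearest to CER6 was the wax and cutin exporter ABCG11 (r = 0.9937, 0.9840 to 0.9933). For FDH it was KCS8, another 3-ketoacyl-CoA synthase (r = 0.9973, 0.9909 to 0.9972), for PDF1 TUB5 (r = 0.9944) and for PDF2 GTL1 (r = 0.9919). For BDG1 it was PYK10, a gene of the root marker list (r = 0.9965, 0.9106 to 0.9971), and for LCR WOX1 (r = 0.9880, 0.8581 to 0.9886). ATML1 was nearest to SQS2 (r = 0.9949), CER1 to CYP707A2 (r = 0.9918) and CER3 to RLP57 (r = 0.9682), but these fell to 0.6962, 0.6938 and 0.6689 with another scaling. The points are 12 arrays in 4 groups, so arrays of a group are not independent points, and the values are a description without a test. Among the 10 genes themselves r was 0.99 for CER6 with KCS1 and for FDH with BDG1, 0.96 for ATML1 with PDF2, and 0.16 for CER1 with CER3.

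Markers of other cell types also differed between the groups. The summed linear level of 4 stomatal genes (SPCH, MUTE, FAMA and TMM) was 2.91 to 3.58 for seedlings, 0.0628 to 0.703 for 35S:WIND1, 0.0482 to 0.113 for T87 and 0.0325 to 0.0679 for 2,4-D-induced callus. SPCH and FAMA were not above background in either auxin-grown callus, nor was MUTE in 2,4-D-induced callus. For 3 trichome genes the sums were 0.924 to 1.10, 0.0280 to 0.0805, 0.0610 to 0.0916 and 0.0244 to 0.0405 in the same order, with GL1 not above background in either auxin-grown callus. All 4 stomatal and all 3 trichome genes were called lower than in seedlings in every callus. Of all genes, 19.6%, 26.5% and 24.2% were in 35S:WIND1, T87 and 2,4-D-induced callus. Of the stomatal genes, 1, 2 and 0 were well above background on all 3 arrays of these calli, and of the trichome genes 1 in each. That trichome gene was GL2 in both auxin-grown calli, whereas in 35S:WIND1 callus GL2 was above background on only 1 array. At least 1 stomatal gene, and 1 trichome gene, therefore passed the filter on dim probes through seedlings alone. Such genes could hardly be other than lower in callus. None of the 10 genes passed that way. Of these 10, CER1, CER3, CER6, KCS1, FDH and BDG1 were not called in 35S:WIND1 callus.

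Inner tissues showed other orders. For 4 mesophyll genes the sums were 333 to 429 for seedlings, 62.9 to 95.1 for 35S:WIND1, 77.6 to 98.8 for T87 and 1.73 to 5.79 for 2,4-D-induced callus, where RBCS2B was not above background. For 4 xylem genes they were 4.49 to 5.57, 8.22 to 62.3, 0.390 to 0.470 and 0.139 to 0.154, and for 3 phloem genes 7.05 to 8.03, 4.28 to 7.11, 0.0656 to 0.165 (with SEOR1 not above background) and 1.07 to 1.70. For 3 root genes they were 33.1 to 39.1, 18.8 to 32.9, 1.02 to 1.17 and 20.9 to 33.3. Some of these sums rest on 1 gene. RBCS1A made up 94.7%, 99.2% and 96.0% of the mesophyll sum in 35S:WIND1, T87 and 2,4-D-induced callus, while CA1 had mean levels of 5.05 in seedlings and of -3.14, -4.46 and -6.19 in the 3 calli. PYK10 made up 87.7%, 90.6% and 90.0% of the root sum in seedlings, 35S:WIND1 and 2,4-D-induced callus, while the root endodermis gene CASP1 had mean levels of 0.75 in seedlings and of -5.56, -6.31 and -5.04 in 35S:WIND1, T87 and 2,4-D-induced callus. SUC2 made up 84.8% of the phloem sum in 35S:WIND1 callus and 50.4% in seedlings, and SCR made up 84.8% of the root sum in T87 callus. Among the stomatal and trichome sums, TMM made up 83.3% of the former in 2,4-D-induced callus, and GL2 81.7% of the latter in T87 callus. Phloem and root sums were lowest in T87 callus, and mesophyll and xylem sums in 2,4-D-induced callus. The part of these cell types in the levels of the 10 genes was not tested.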

How the data were processed

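Total RNA of 12 samples was labelled with Cy3, per the labels. The values deposited for each array are linear spot intensity, background-subtracted by Agilent Feature Extraction per the file headers (version 9.1.3.1 per the submitters' processing notes). The authors' deposited series table is in natural log units: set against the scanner values, it is the processed signal minus 1 constant per group, for a reason not given in the sources used here. Its column medians were -1.74, -2.08 and -1.81 (seedlings), -1.93, -1.56 and -2.02 (35S:WIND1), -2.52, -2.40 and -2.57 (T87) and -2.49, -2.70 and -2.34 (2,4-D-induced). It served as an alternative, where higher values mean more signal.

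From these, the log2 of each signal over the array's 75th percentile was computed. The 1417 control spots and outlier spots were left out, spots of a probe were averaged, and each gene was represented by its brightest probe. No spot was saturated. Where only some arrays of a group were above background, changes are given as read and, as a setting chosen after seeing the data, with each dim array raised to at least its lowest signal well above background. Genes were named by the locus codes in the scanner files and by a reference table of assembly TAIR10.1. No genome build is used, and no sequence or coordinate is printed. limma 3.58.1 (lmFit and eBayes, two-sided, R 4.3.3) fitted all 12 arrays with 4 group means and no block, after a check on simulated data, and p-values were adjusted over all 21347 genes. The number of arrays limits the precision.

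Alternatives were normexp background correction (offset 50, on median signals because the scanner files used hold no mean signal), quantile normalization, array median scaling, the deposited values, no filter, a filter on all 12 arrays, the mean of a gene's probes, a replicate block and leaving out each array. The replicate number is also the slide. Deviations from group means correlated between same-numbered arrays at -0.1355 to 0.124 over 18 pairs. The text names all 10 genes, and of each list the called genes with the largest rise and fall, in part. It also names those with the most similar patterns. The genes, lists and rules were chosen with earlier results of these data known.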

Additional observations from a re-analysis of the deposited data

How the results depend on the processing

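The counts of called genes among the 10 (12 counts, each direction in 6 comparisons) stayed within 1.5 times in 86 of 96 values under the other settings and in 142 of 144 with 1 array left out. The count lower in 35S:WIND1 than in 2,4-D-induced callus went from 1 to 0 with normexp correction and with the deposited values, and ranged from 0 to 1 with 1 array left out (0 without the second 35S:WIND1 array). Against seedlings, the count higher in 35S:WIND1 callus went from 0 to 1 with median scaling or the deposited values. The count higher in 2,4-D-induced callus went from 1 to 0 with the deposited values and ranged from 0 to 1 with 1 array left out (0 without the second 2,4-D-induced array). The filter on all 12 arrays kept 6 of the 10 genes, so that by its construction 2, 6 and 4 were called lower in 35S:WIND1, T87 and 2,4-D-induced callus than in seedlings, 6 higher in 35S:WIND1 than in T87 callus and 4 lower in T87 than in 2,4-D-induced callus. Signs turned only among changes that were not called: CER1 in 35S:WIND1 callus against seedlings (0.20 with median scaling, 0.26 with the deposited values, -0.45 to 0.17 with 1 array left out, the latter without the first 35S:WIND1 array), CER1 in T87 against 2,4-D-induced callus (-0.34 with the mean of its probes, -0.10 without the second T87 array, -0.26 without the first 2,4-D-induced array, and -0.26 to 0.34 over all arrays left out), BDG1 in 35S:WIND1 against 2,4-D-induced callus (-0.092 with median scaling, -0.0093 to 0.52 with 1 array left out, the former without the first 2,4-D-induced array) and CER3 there (0.17 with the deposited values). The replicate block, which is also the slide, changed none of the 60 member calls, raised the number of wax genes called higher than in seedlings from 0 to 1 in 35S:WIND1 callus, left the counts lower than in seedlings at 4, 10 and 7, and gave 2647 higher and 4175 lower genes in 35S:WIND1 callus against seedlings beside 2660 and 4187. The causes of these shifts were not tested.

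Scaling sets the zero: the median change of all genes was 0.50, 0.86 and 0.90 under median scaling (35S:WIND1, T87 and 2,4-D-induced callus against seedlings), and 0.56, -0.03 and -0.02 in the deposited table. The share of called genes that were higher in 35S:WIND1 callus was 54.4% against T87 callus (35.5% with median scaling, 75.3% deposited) and 59.0% against 2,4-D-induced callus (42.8% and 82.5%). Normexp correction gave 1181 higher and 1678 lower genes in 35S:WIND1 callus against seedlings. PDF1 and BDG1 have only bounds in T87 callus. PDF2 and FDH were above background on 1 T87 array, so their folds there are as read, and raising the dim arrays moved that of FDH against seedlings from 1438-fold to 749-fold.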
